A study of Homo sapiens with 9 samples.

Results

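The constitutive proteasome genes described here are those with a symbol from PSMA, PSMB, PSMC, PSMD, PSME, PSMF or PSMG and a digit, on probe sets with a single platform symbol, without the immunoproteasome genes PSMB8, PSMB9 and PSMB10, pseudogenes and antisense genes. The rule read symbols and no measured value. It took 43 of the 19775 genes measured, and 39 of the 43 have a known role in the proteasome: 7 alpha subunits, 7 beta subunits, 5 base ATPases, 3 other base subunits, 6 lid subunits, 3 regulatory-particle chaperones, 4 core-particle chaperones, 3 activators and 1 inhibitor. The other 4 symbols, PSMC3IP, PSME3IP1, PSMD7-DT and PSMD14-DT, have no known role in it and are given apart. PSMA6 and PSME2 lay only on probe sets with several symbols and are not named. PSMB11, PSMC5, PSMD7 and PSMD13 were not analysed here.

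The proteasome is the large protease that degrades ubiquitin-tagged proteins. Its barrel-shaped core particle has rings of alpha subunits, which gate the entry, around rings of beta subunits, some of which carry the active sites. A regulatory particle caps the barrel, with a base whose ATPases unfold the substrate and a lid that removes the ubiquitin chains. Chaperones build both particles, and activators and an inhibitor bind the core. In B cells the constitutive subunits are found beside the immunoproteasome subunits, which can replace the active beta subunits.

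RNA came from P493-6, an established human B-lymphocyte line, and was hybridised to 9 single-colour arrays. The labels give 4 arrays with high Myc expression, 3 with low and 2 with no Myc expression, and number the replicates. As background, P493-6 carries a MYC gene that tetracycline represses. MYC is a transcription factor that drives growth and division. The labels give no treatment, time or culture for any group, so the p-values cover the spread from array to array and no more, and that spread may be technical. The values are RMA intensities, which bring the arrays to a similar distribution, so every difference is relative to the other genes of the array. The distributions were not equal, as repeating quantile normalization still moved medians and counts, which are given below. In these bulk samples, fewer cells of a type and less RNA per cell cannot be told apart.

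The label of 1 array went against its MYC level. MYC read 12755, 11326, 15404 and 12186 on the high Myc arrays, 2126, 2526 and 1443 on the low Myc arrays, and 2803 and 416 on the no Myc arrays. Arrays are named below by group and number, and values stand in that order. The library labelled no Myc 1 thus lay above every low Myc array. Results against no Myc are therefore also given without it, and the group then rests on 1 array that is assumed to vary like the others. The summed intensity of 7 measured B-cell markers was 18960 to 26025 with high Myc, 22923 to 25489 with low Myc and 39206 to 47391 with no Myc, and all 7 were lower in high than in no Myc. Of 8 myeloid markers 2 (LYZ and ITGAM) were lower in high than in no Myc, and the list summed to 391 to 456, 358 to 404 and 1643 to 2489. LYZ, the lysozyme gene, read 775 and 333 on the no Myc arrays and at most 68 elsewhere. The control probe sets of GAPDH gave a log2 excess of 3' over 5' signal of 0.25 and 0.42 on the no Myc arrays and of 0.0094 to 0.24 on the others. Those of ACTB did not set the no Myc arrays apart, with 0.0039 and -0.0113 on them and -0.07 to 0.19 on the others. The part of these differences in the proteasome results was not tested.

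To show the promoters of genes that the results turn on, the 250 bases before the start of 5 genes are printed 5′ to 3′ from RefSeq on GRCh38.p14. They are PSMG1 at chr21:39183452-39183701 on the minus strand, PSMG4 at chr6:3258697-3258946 on the plus strand, PSMD12 at chr17:67366578-67366827 on the minus strand, PSME3 at chr17:42833147-42833396 on the plus strand and PSME1 at chr14:24135944-24136193 on the plus strand. Capitals mark matches, on either strand, to CACGTG (the E-box that MYC and its partner MAX can bind), TGACNNNGC (the antioxidant response element that NFE2L1 and NFE2L2 can bind) and CCAAT (the NF-Y box).
PSMG1: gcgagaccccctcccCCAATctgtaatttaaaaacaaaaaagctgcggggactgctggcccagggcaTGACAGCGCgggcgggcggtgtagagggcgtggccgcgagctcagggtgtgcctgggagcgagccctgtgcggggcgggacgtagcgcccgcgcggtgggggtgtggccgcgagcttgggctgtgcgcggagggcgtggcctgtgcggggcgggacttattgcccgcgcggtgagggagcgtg
PSMG4: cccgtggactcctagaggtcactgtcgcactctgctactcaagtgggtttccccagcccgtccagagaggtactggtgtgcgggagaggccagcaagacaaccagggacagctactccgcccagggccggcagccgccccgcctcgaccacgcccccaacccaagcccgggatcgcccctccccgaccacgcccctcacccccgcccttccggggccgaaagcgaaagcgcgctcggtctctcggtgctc
PSMD12: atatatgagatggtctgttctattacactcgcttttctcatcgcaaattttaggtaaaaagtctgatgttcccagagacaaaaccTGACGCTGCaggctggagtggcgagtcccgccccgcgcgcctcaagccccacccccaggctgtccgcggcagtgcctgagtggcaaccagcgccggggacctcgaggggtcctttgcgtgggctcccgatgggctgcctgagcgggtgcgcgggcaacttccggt
PSME3: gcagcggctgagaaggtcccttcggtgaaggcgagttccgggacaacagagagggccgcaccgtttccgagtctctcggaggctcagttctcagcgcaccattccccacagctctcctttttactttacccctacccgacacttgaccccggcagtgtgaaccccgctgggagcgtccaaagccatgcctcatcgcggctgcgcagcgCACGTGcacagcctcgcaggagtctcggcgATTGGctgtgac
PSME1: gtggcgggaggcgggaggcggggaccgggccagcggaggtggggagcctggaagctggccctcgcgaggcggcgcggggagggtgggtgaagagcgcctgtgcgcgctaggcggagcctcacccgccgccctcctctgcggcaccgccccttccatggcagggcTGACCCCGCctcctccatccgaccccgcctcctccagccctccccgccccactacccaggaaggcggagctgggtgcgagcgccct
Of these 5 promoters the E-box stood in that of PSME3, the antioxidant element in those of PSMG1, PSMD12 and PSME1, CCAAT in those of PSMG1 and PSME3, and no match in that of PSMG4. RefSeq promoters matched 33 of the 39 genes, with 39 promoters in all, and PSMA7, PSMB1, PSMB6, PSMB7, PSMD4 and PSMG3 did not match. The E-box was in 3 of the 39 promoters (7.69%; PSMB3, PSMD9 and PSME3), against 6.35% of all 35116 promoters. TGACNNNGC was in 10 of the 39 (25.6%), against 10.9% of all. CCAAT was in 15 of the 39 (38.5%), against 32.0% of all. These are letter matches, described without a test.

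Most proteasome genes were higher with high Myc than with no Myc, and the core-particle chaperones PSMG1 and PSMG4 differed most. By limma with Benjamini-Hochberg adjustment over all 19775 genes (called at an adjusted p under 0.05), 30 of the 39 rose and 1, PSME1, fell, while 14.2% of all genes were called higher and 9% lower. The median difference of the 39 was 0.79 on the log2 scale, from -0.49 to 3.24, against a median of -0.01 over all genes. Of the 39 genes 9 were called at least 2-fold higher, against 1499 of all 19775 genes. The difference was positive for 38 of the 39, and for 36 after quantile normalization was repeated, where PSMB4 and PSMD4 turned to -0.06 and -0.14. After that repeat 26 of the 39 rose, against 13.7% of all genes, and their median was 0.61. Every high Myc array lay above every no Myc array for 36 of the 39, against 20.6% of all genes. Without the library labelled no Myc 1 the risers were 14, against 9.11% of all genes, and 37 of the 39 differences were positive. Those 14 were PSMA2, PSMA3, PSMA7, PSMB2, PSMB5, PSMB6, PSMB7, PSMD1, PSMD8, PSMD14, PSMG1, PSMG4, PSME3 and PSME4.

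**Figure D1:**
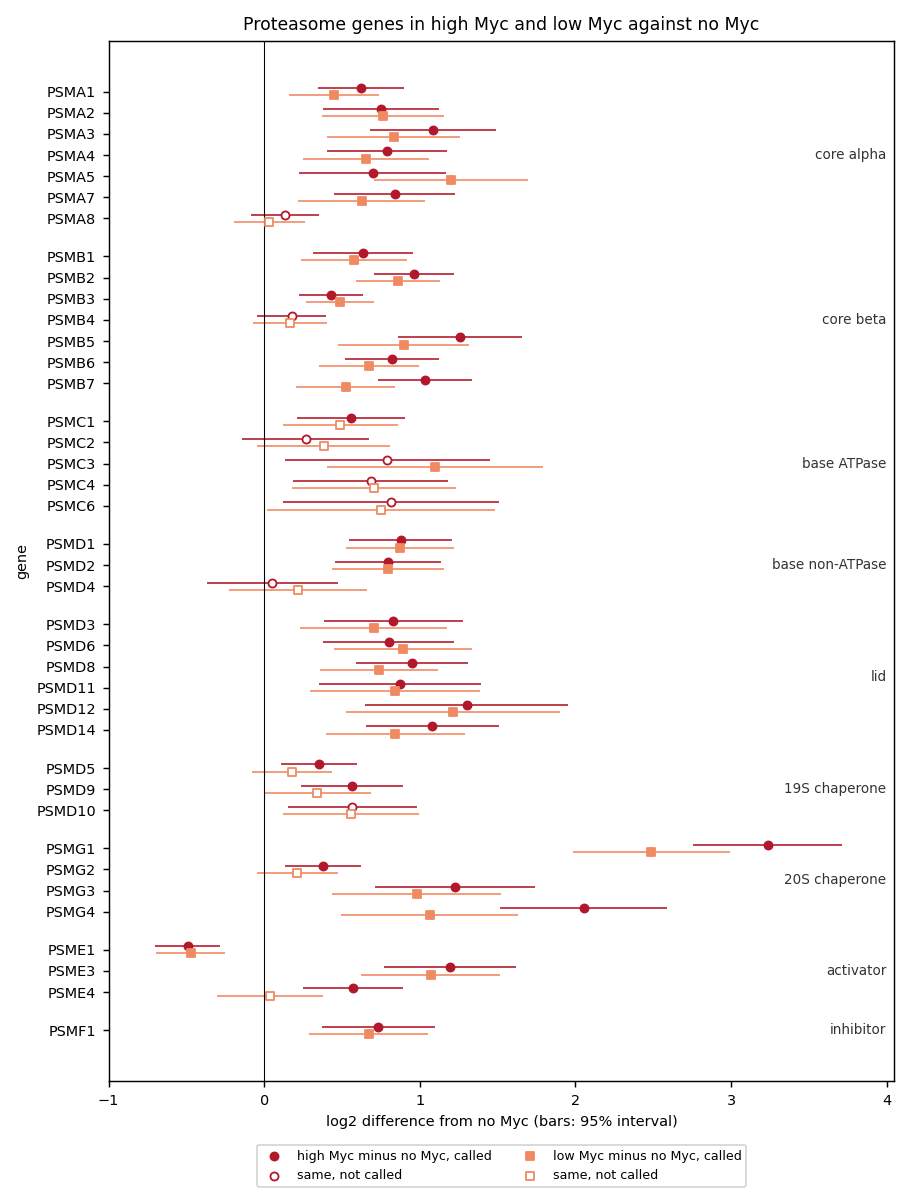
Log2 difference from no Myc for the 39 proteasome genes, by role, in high Myc (circles) and low Myc (squares), with 95% intervals of the limma fit. Filled symbols are called at an adjusted p under 0.05. PSMG1 (3.24 and 2.49) and PSMG4 (2.05 and 1.06) lie farthest to the right in their role, and PSME1 (-0.49 and -0.47) is the gene left of 0.

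Of the 39 genes, 26 rose in low against no Myc and 1, again PSME1, fell, while 11.3% of all genes were called higher and 8.55% lower. MYC itself was not called in low against no Myc (0.87 ± 0.64, adjusted p = 0.484) and gave -0.50 without no Myc 2, but was called at 2.25 once the library labelled no Myc 1 was removed (adjusted p = 0.00843). MYC rose by 3.57 ± 0.60 in high against no Myc (adjusted p = 0.00252). The median of the 39 was 0.70, against -0.0017 over all genes. Of the 39 genes 6 were called at least 2-fold higher, against 1098 of all 19775 genes. Positive differences numbered 38, and PSME4 turned from 0.04 to -0.05 after quantile normalization was repeated. For 32 of the 39 every low Myc array lay above both no Myc arrays, against 20% of all genes. Without the library labelled no Myc 1 the risers were 6, against 5.16% of all genes. They were PSMA2, PSMA5, PSMB2, PSMD1, PSMG1 and PSME3. The count was 14 without no Myc 2 or low Myc 1 and 17 without low Myc 2. Both comparisons share the no Myc arrays, so they are not independent of each other.

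Among the alpha subunits 6 of 7 rose in each comparison, with medians of 0.75 in high and 0.65 in low Myc. PSMA3, a constitutive alpha subunit, read 4144, 5271, 5036 and 4415 with high Myc, 4144, 4845 and 3053 with low Myc, and 2203 and 2226 with no Myc. No high or low Myc array overlapped the no Myc arrays. PSMA3 rose by 1.08 ± 0.18 on the log2 scale in high Myc (SE, adjusted p = 0.00223) and by 0.83 ± 0.19 in low Myc (adjusted p = 0.0137). Its 2 other probe sets, which were dimmer, gave 0.12 and -0.46 for high against no Myc. PSMA5, another subunit of the alpha ring, read 2167, 3327, 2596 and 2120 with high Myc, 4336, 2897 and 3579 with low Myc, and 1565 and 1528 with no Myc. It was the alpha subunit whose low Myc difference (1.20 ± 0.22, adjusted p = 0.00508) exceeded its high Myc difference (0.70 ± 0.21, adjusted p = 0.0394) by most. In high Myc PSMA5 missed the threshold once high Myc 2, high Myc 3, low Myc 3 or any no Myc array was removed (adjusted p up to 0.169). PSMA8, the alpha subunit of the testis, read 15 to 18 on all 9 arrays and was not called. The remaining alpha genes PSMA1, PSMA2, PSMA4 and PSMA7 rose by 0.62 to 0.84 in high Myc and by 0.45 to 0.76 in low Myc. In high Myc those of PSMA1 and PSMA4 missed the threshold once the library labelled no Myc 1 was left out, and those of PSMA2 and PSMA7 once no Myc 2 was (adjusted p up to 0.0963). In low Myc PSMA3, PSMA1, PSMA4 and PSMA7 missed it without either no Myc array and PSMA2 without no Myc 2, and PSMA1, PSMA4 and PSMA7 also without low Myc 1 or 2 and some high Myc arrays (adjusted p up to 0.225).

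The 3 catalytic beta subunits rose in both comparisons. PSMB5, which carries the chymotrypsin-like activity, read 1966, 2605, 2146 and 1840 with high Myc, 1745, 1920 and 1336 with low Myc, and 847 and 926 with no Myc. Its lowest high or low Myc array was thus well above both no Myc arrays, and the differences were 1.26 ± 0.18 (2.39-fold, adjusted p = 0.000988) in high and 0.90 ± 0.19 (adjusted p = 0.00923) in low Myc. PSMB6, the caspase-like subunit, read 1619, 2027, 1799 and 1669 with high Myc, 1630, 1763 and 1428 with low Myc, and 922 and 1094 with no Myc. High and low Myc arrays interleaved for PSMB6 and stood above no Myc, with differences of 0.82 ± 0.13 (adjusted p = 0.00209) and 0.67 ± 0.14 (adjusted p = 0.00952). PSMB7, the trypsin-like subunit, read 3356, 4288, 4072 and 3804 with high Myc, 2770, 2584 and 2795 with low Myc, and 1675 and 2131 with no Myc. The 3 groups of PSMB7 did not overlap, with differences from no Myc of 1.03 ± 0.13 (adjusted p = 0.000664) in high and 0.52 ± 0.14 (adjusted p = 0.0284) in low Myc. All 3 high Myc calls held in all 9 leave-one-out fits, each of which dropped 1 array. In low Myc all 3 were lost when the library labelled no Myc 1 was removed (adjusted p = 0.0834, 0.101 and 0.254), and that of PSMB7 also without low Myc 1 or 3. A dimmer second probe set of PSMB7 gave -0.13 in high and -0.46 in low Myc.

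The structural beta subunits were less uniform. PSMB4 read 3374, 3446, 3441 and 3409 with high Myc, 3596, 3585 and 3024 with low Myc, and 2940 and 3108 with no Myc. It was the beta subunit that was called in neither comparison (0.18 ± 0.10, adjusted p = 0.292, and 0.17 ± 0.10, adjusted p = 0.387), and its low Myc arrays overlapped the no Myc arrays. PSMB1, PSMB2 and PSMB3 rose by 0.43 to 0.96 in high and by 0.49 to 0.86 in low Myc. The other PSMB2 probe sets, from brighter to dimmer, gave 0.10, 1.05 and -0.26 in high Myc and 0.09, 0.85 and -0.05 in low Myc. The PSMB2 calls held whichever array was left out, those of PSMB1 and PSMB3 did not without the library labelled no Myc 1 (adjusted p up to 0.198), and that of PSMB1 in low Myc also needed low Myc 1, low Myc 2 and no Myc 2.

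The base ATPases, which thread the substrate into the core, had 1 call of 5 in each comparison. Over all genes 14.2% were called higher in high and 11.3% in low against no Myc. The medians of the ATPases were 0.68 in high and 0.70 in low Myc. PSMC1 was called in high Myc (0.56 ± 0.15, adjusted p = 0.0281) and PSMC3 in low Myc. PSMC3 read 861, 1870, 1364 and 1193 with high Myc, 1446, 1804 and 1501 with low Myc, and 583 and 928 with no Myc. High Myc 1 lay below the higher no Myc array, and the high Myc arrays spread by an SD of 0.46 (log2, n = 4). PSMC3 gave 0.79 ± 0.29 in high Myc (adjusted p = 0.0904) and 1.10 ± 0.31 in low Myc (adjusted p = 0.0338), and the low Myc call held in 3 of the 9 leave-one-out fits. PSMC6 read 973, 1257, 1129 and 758 with high Myc, 1107, 1316 and 622 with low Myc, and 668 and 496 with no Myc. Its low Myc arrays spread widely and overlapped no Myc, and neither difference was called (0.81 ± 0.31, adjusted p = 0.0975, and 0.75 ± 0.32, adjusted p = 0.161). PSMC4 gave 0.68 ± 0.22 (adjusted p = 0.0549) and 0.70 ± 0.23 (adjusted p = 0.0672) and was not called. PSMC2 read 1684, 2346, 2094 and 1630 with high Myc, 2347, 2225 and 1713 with low Myc, and 1583 and 1604 with no Myc. Every high and low Myc array of PSMC2 lay above the no Myc arrays, by 0.27 ± 0.18 (adjusted p = 0.409) and 0.38 ± 0.19 (adjusted p = 0.238). Its 2 other probe sets gave -0.03 and 0.11 in high Myc and -0.34 and -0.24 in low Myc. The call of PSMC1 was lost once any of high Myc 2, high Myc 3 or the library labelled no Myc 1 was removed (adjusted p up to 0.246), and that of PSMC3 once any low Myc array, high Myc 3, high Myc 4 or that library was (adjusted p up to 0.286).

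Of the base subunits without ATPase activity, the scaffold subunits PSMD1 and PSMD2 rose in both comparisons. PSMD1 read 1497, 2085, 1933 and 1683 with high Myc, 1807, 1939 and 1608 with low Myc, and 926 and 1019 with no Myc. Its differences were 0.88 ± 0.15 (adjusted p = 0.00233) and 0.87 ± 0.15 (adjusted p = 0.00427), and both calls held whichever of the 9 arrays was left out. The PSMD2 calls (0.79 in each comparison) missed the threshold without the library labelled no Myc 1 (adjusted p up to 0.0781). PSMD4, a ubiquitin receptor, read 1458, 2355, 1986 and 1740 with high Myc, 2142, 2269 and 1853 with low Myc, and 1635 and 1958 with no Myc. The groups overlapped for PSMD4, and its difference in high Myc was 0.05 with a 95% interval of -0.37 to 0.47 (adjusted p = 0.912). Its 4 probe sets gave 0.05 to 0.26 in that comparison.

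All 6 measured lid subunits rose in both comparisons, with medians of 0.91 and 0.84. PSMD12, a structural lid subunit, read 1112, 2108, 1824 and 1268 with high Myc, 1566, 1815 and 1043 with low Myc, and 627 and 610 with no Myc. Its lowest high or low Myc array was above both no Myc arrays, and the differences were 1.30 ± 0.29 (adjusted p = 0.0097) and 1.22 ± 0.30 (adjusted p = 0.021). PSMD6, also structural, read 2021, 3107, 2865 and 2515 with high Myc, 2591, 3223 and 2515 with low Myc, and 1346 and 1645 with no Myc. PSMD6 had the smallest lid difference in high Myc, 0.80 ± 0.19 (adjusted p = 0.0124), and 0.89 ± 0.20 in low Myc (adjusted p = 0.0121). PSMD14, the deubiquitinase of the lid, rose by 1.08 ± 0.19 (adjusted p = 0.00286) and 0.84 ± 0.20 (adjusted p = 0.0159). A second, dimmer probe set gave 0.25 and 0.20 for PSMD11, neither called, and 1.79 and 1.51 for PSMD12. That of PSMD6 read 13 to 14 and gave -0.06 and -0.02. In high Myc the PSMD12 and PSMD3 calls were lost without either no Myc array, the PSMD6 call when the library labelled no Myc 1 was dropped, and the PSMD11 call without that library or high Myc 3 (adjusted p up to 0.215). In low Myc each lid call was lost without that library (adjusted p up to 0.284), and those of PSMD3, PSMD11 and PSMD12 also without no Myc 2, low Myc 1 or low Myc 2, and of PSMD3 and PSMD11 without some high Myc arrays.

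The 4 core-particle chaperones, which pair as PSMG1 with PSMG2 and PSMG3 with PSMG4 to assemble the alpha ring, all rose in high Myc, with a median of 1.64. In low Myc 3 of the 4 rose, with a median of 1.02. PSMG1 read 1743, 2526, 2452 and 2070 with high Myc, 1307, 1658 and 1001 with low Myc, and 221 and 241 with no Myc. The 3 groups did not overlap, and PSMG1 rose by 3.24 ± 0.21 in high Myc (9.42-fold, adjusted p = 8.83e-05) and by 2.49 ± 0.22 in low Myc (5.61-fold, adjusted p = 0.000352). Both calls held in all 9 leave-one-out fits. Its partner PSMG2 read 2155, 2197, 2230 and 2359 with high Myc, 2072, 2187 and 1748 with low Myc, and 1771 and 1668 with no Myc. PSMG2 thus differed far less, by 0.38 ± 0.11 in high Myc (adjusted p = 0.0338) and 0.21 ± 0.11 in low Myc (adjusted p = 0.286), where the groups overlapped. In high Myc PSMG2 missed the threshold once any no Myc array or any high Myc array but the first was removed (adjusted p up to 0.186).

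**Figure D2:**
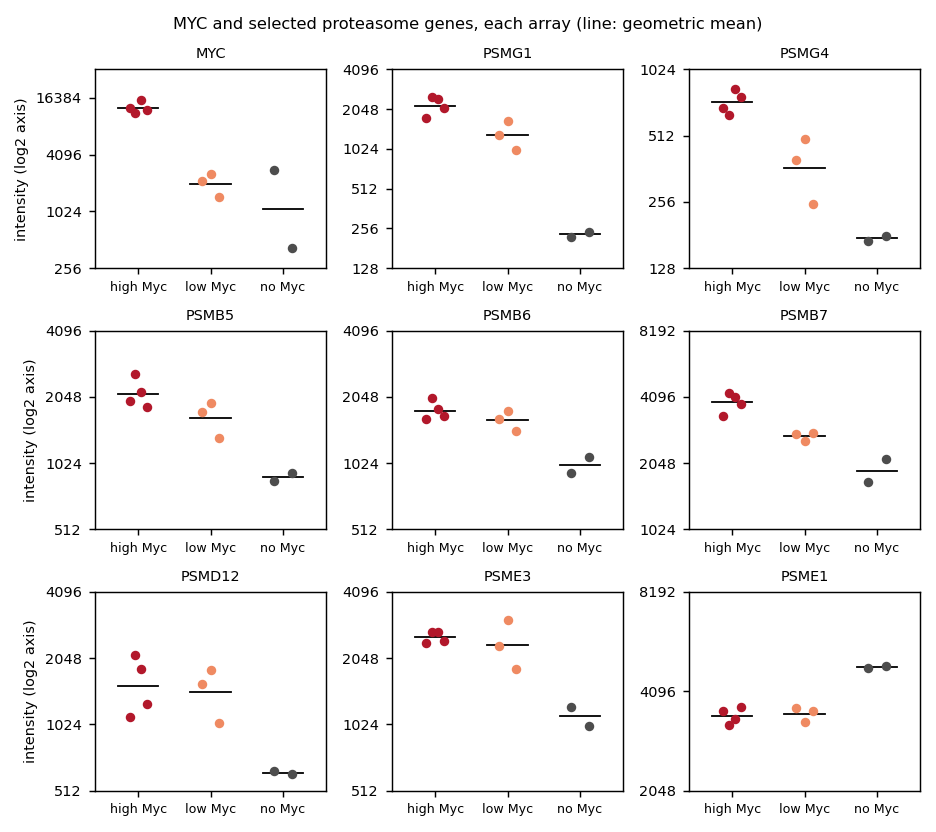
Intensity on each array (log2 axis) for MYC and 8 proteasome genes in high, low and no Myc, with a line at the geometric mean of each group. PSMG1 read 1743 to 2526, 1001 to 1658 and 221 to 241 in the 3 groups, PSME1 was highest with no Myc (4825 and 4904), and the library labelled no Myc 1 had a MYC intensity of 2803.

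PSMG4 read 681, 634, 834 and 769 with high Myc, 396, 492 and 250 with low Myc, and 170 and 180 with no Myc. The 3 groups did not overlap, and PSMG4 rose by 2.05 ± 0.24 in high Myc (4.15-fold, adjusted p = 0.000432) and 1.06 ± 0.25 in low Myc (adjusted p = 0.0162). Its partner PSMG3 rose by 1.23 ± 0.23 in high Myc (adjusted p = 0.00401) and 0.98 ± 0.24 in low Myc (adjusted p = 0.0193). The 4 other probe sets of PSMG4 were dimmer, with means of 3.63 to 6.58 on the log2 scale against 8.72, and gave 0.0041 to 0.42 for high against no Myc. In high Myc PSMG3 missed the threshold once the library labelled no Myc 1 was dropped (adjusted p = 0.0519). In low Myc both did once low Myc 1 or any no Myc array was (adjusted p up to 0.153).

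The regulatory-particle chaperones, which assemble the base, differed less. PSMD5 read 826, 916, 959 and 785 with high Myc, 785, 746 and 784 with low Myc, and 648 and 717 with no Myc. It was above no Myc on every other array, but the high Myc difference of 0.35 ± 0.11 (adjusted p = 0.0448) stayed past the threshold with high Myc 4 removed and with no other array removed (adjusted p up to 0.297). PSMD10, also known as gankyrin, read 907, 1107, 1022 and 821 with high Myc, 956, 1195 and 754 with low Myc, and 655 and 639 with no Myc. No high or low Myc array reached down to the no Myc arrays, but its differences of 0.57 ± 0.18 (adjusted p = 0.0558) and 0.56 ± 0.19 (adjusted p = 0.081) were not called. PSMD9 rose by 0.56 ± 0.14 in high Myc (adjusted p = 0.0193), which was lost once high Myc 3 or any no Myc array was removed (adjusted p up to 0.152), and gave 0.34 ± 0.15 in low Myc (adjusted p = 0.176).

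The 3 activators, which open the gate of the core in place of the regulatory particle, moved apart from each other. PSME1, a subunit of the interferon-inducible activator, read 3578, 3241, 3367 and 3672 with high Myc, 3637, 3305 and 3578 with low Myc, and 4825 and 4904 with no Myc. Both no Myc arrays were above every other array, and PSME1 fell by 0.49 ± 0.09 in high Myc (adjusted p = 0.00435) and by 0.47 ± 0.10 in low Myc (adjusted p = 0.00889). PSME3, the related nuclear activator, went the other way: it read 2403, 2696, 2707 and 2453 with high Myc, 2329, 3050 and 1820 with low Myc, and 1234 and 1011 with no Myc. PSME3 rose by 1.20 ± 0.19 in high Myc (2.29-fold, adjusted p = 0.00169) and 1.07 ± 0.20 in low Myc (adjusted p = 0.00527), and its 4 probe sets gave 1.20 to 1.58 and 1.07 to 1.57. The calls of PSME3 in both comparisons and of PSME1 in high Myc held in all 9 leave-one-out fits, while that of PSME1 in low Myc was lost without either no Myc array (adjusted p up to 0.0583).

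PSME4, a large single-chain activator, read 1199, 1075, 1117 and 1179 with high Myc, 871, 870 and 645 with low Myc, and 838 and 706 with no Myc. High Myc stood above both other groups, which overlapped each other, and PSME4 rose by 0.57 ± 0.14 in high Myc (adjusted p = 0.0178) and gave 0.04 ± 0.15 in low Myc (adjusted p = 0.945). The call was lost without no Myc 2 (adjusted p = 0.157). A dimmer probe set of PSME4 disagreed, with -0.15 in high Myc and -0.95 in low Myc (adjusted p = 0.624 and 0.00454 over every probe set with 1 symbol). The inhibitor PSMF1 read 949, 1263, 1179 and 983 with high Myc, 1016, 1241 and 895 with low Myc, and 653 and 654 with no Myc. Every high and low Myc array was above both no Myc arrays, and PSMF1 rose by 0.73 ± 0.16 (adjusted p = 0.00923) and 0.67 ± 0.17 (adjusted p = 0.0217). Those calls were lost without either no Myc array, and in low Myc also without low Myc 1 or 2.

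The array of origin mattered within groups as well. Averaged over the 39 genes, log2 intensity was 10.62, 10.94, 10.87 and 10.70 on the high Myc arrays, 10.71, 10.84 and 10.42 on the low Myc arrays, and 9.93 and 10.03 on the no Myc arrays. The genes moved together by array: high Myc 1 was the lowest of its group for 24 of the 39 and high Myc 2 the highest for 25, and low Myc 3 was the lowest for 34. The medians of all genes on the same arrays were 6.98 to 7.06. MYC itself was lowest on low Myc 3 and, among the high Myc arrays, on high Myc 2. On the library labelled no Myc 1, which had the higher MYC of the pair, 28 of the 39 genes were lower than on no Myc 2, with a median difference of -0.12. The median SD within groups over the 39 genes was 0.16 for high and 0.24 for low Myc, against 0.15 and 0.18 over all genes.

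**Figure D3:**
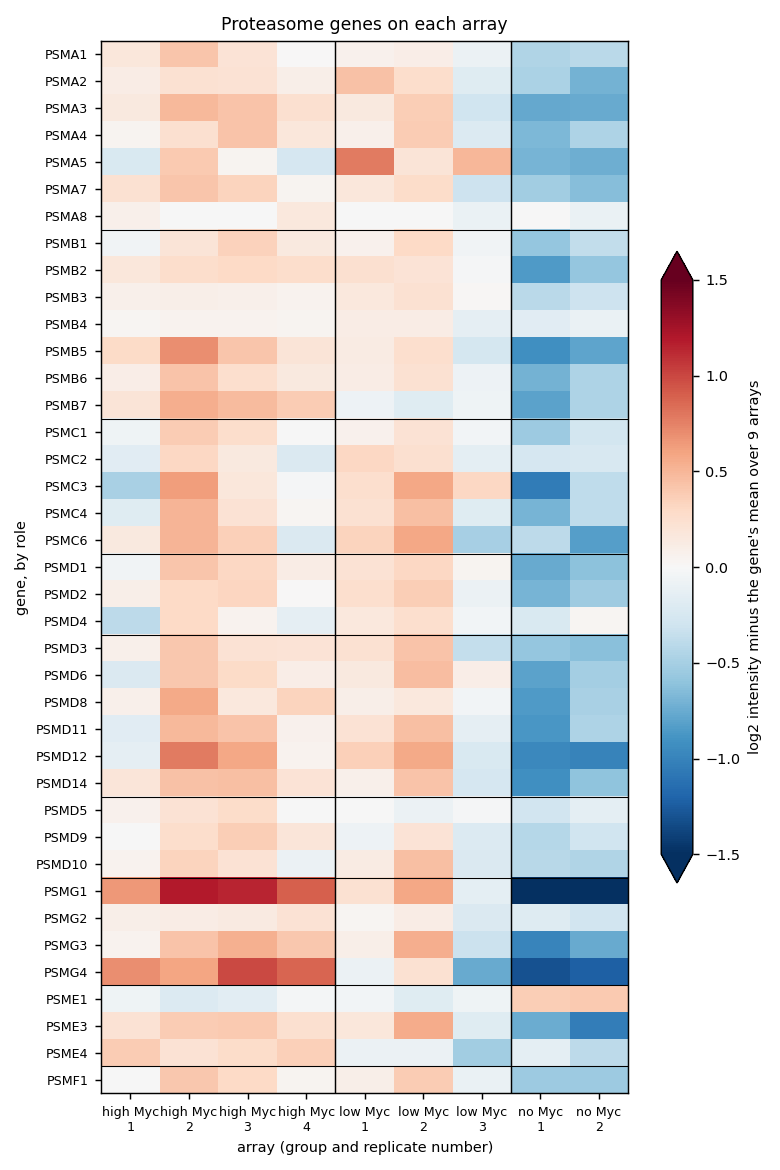
Log2 intensity of the 39 proteasome genes on each of the 9 arrays, minus the gene's mean over the arrays (red higher, blue lower), with genes ordered by role. Both no Myc arrays are the lowest columns (9.93 and 10.03 on average), low Myc 3 is the palest of its group (10.42), and PSME1 runs opposite to most rows.

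Between high and low Myc the called share of the proteasome genes was near that over all genes. MYC differed by 2.70 ± 0.53 between these groups (adjusted p = 0.0321). Of the 39 genes 1 (2.56%), PSMG4, was called higher and 0 lower, against 2.33% and 1.27% of all genes. An unadjusted p under 0.05 was reached by 6 of the 39, and by 3253 of all 19775 genes. The median of the 39 was 0.10, and 30 differences were positive, against 20 and a median of 0.0011 after quantile normalization was repeated. Without low Myc 3 the median was -0.0081, and 18 of the 39 differences were positive. Over all genes 64.6% of the calls were higher, and 51.4% after that repeat. In 4 genes (PSMB7, PSMG1, PSMG4 and PSME4) every high Myc array was above every low Myc array, against 8.06% of all genes. PSMG4 rose by 0.99 ± 0.21 (1.99-fold, adjusted p = 0.039), but the call held in 3 of the 9 leave-one-out fits. It was lost on removal of low Myc 1, of any no Myc array or of any high Myc array but the second (adjusted p up to 0.118). In the limma fit over every probe set with 1 symbol, a much dimmer PSMG4 probe set was called lower (-1.38, adjusted p = 0.0422). The probe set that stood for PSMG4 missed the threshold in that fit (adjusted p = 0.0531). MYC itself was called in 4 of those 9 fits (adjusted p up to 0.0988 on removal of high Myc 1, 3 or 4 or low Myc 1 or 3).

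PSMG1, PSMB7 and PSME4 lay near the threshold. Their differences were 0.75 with a 95% interval of 0.33 to 1.17 (adjusted p = 0.0665), 0.51 with 0.24 to 0.77 (adjusted p = 0.0514) and 0.53 with 0.25 to 0.82 (adjusted p = 0.0557). PSMA5 had the lowest value, -0.50 with an interval of -0.92 to -0.09 (adjusted p = 0.194). The intervals of the remaining genes were of unequal width. PSMB4 had -0.19 to 0.21, PSME1 -0.20 to 0.17, PSMD1 -0.29 to 0.30 and PSMC6 -0.55 to 0.67, so for PSMC6 a difference of that size in either direction was not resolved by these arrays.

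**Figure D4:**
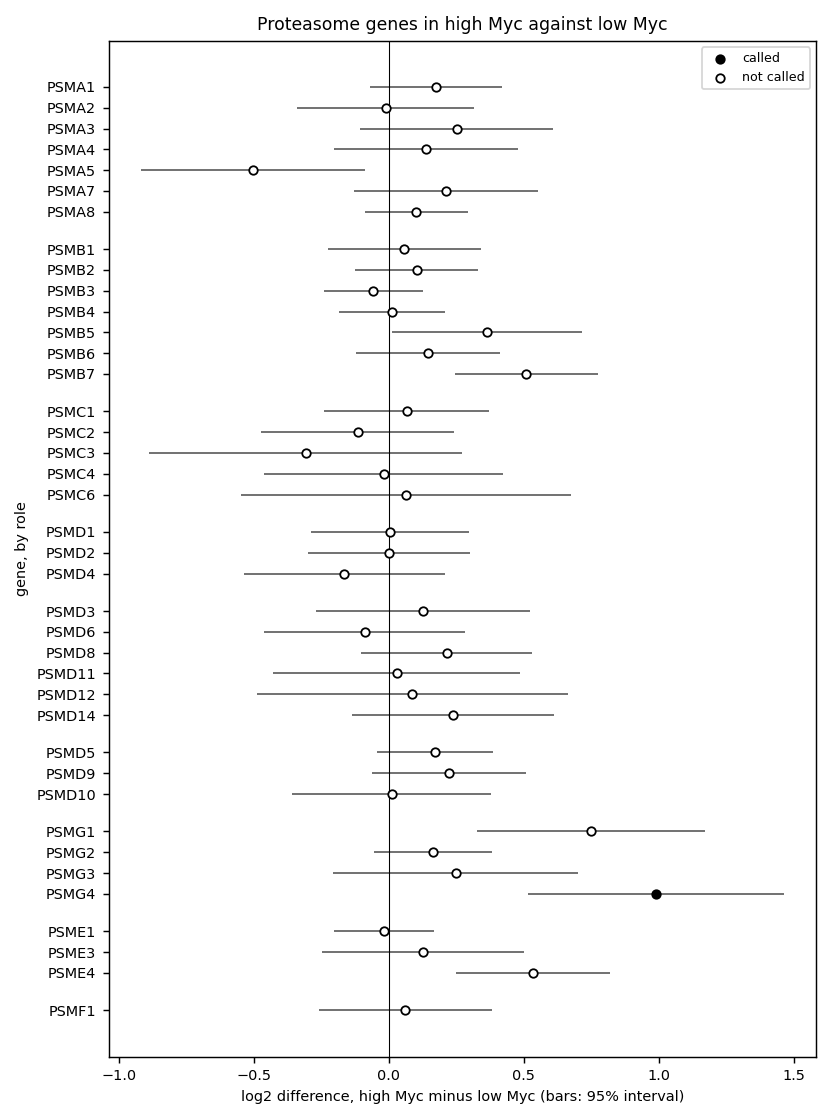
Log2 difference between high and low Myc for the 39 proteasome genes, by role, with 95% intervals; filled symbols are called at an adjusted p under 0.05. PSMG4 (0.99) is the filled point, PSMG1 (0.75), PSME4 (0.53) and PSMB7 (0.51) follow, and PSMA5 (-0.50) is the lowest.

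The 4 genes of the rule without a proteasome role were too few for their calls to be set apart from those over all genes. None was called in high against no Myc (-0.25 to 0.25), while 14.2% of all genes were called higher and 9% lower. An unadjusted p under 0.05 was reached by 2 of the 4, and by 5990 of all 19775 genes. Every high and low Myc array of PSMC3IP, a recombination factor, lay above both no Myc arrays. PSMC3IP was called higher in low Myc (0.44 ± 0.10, adjusted p = 0.0171), as were 11.3% of all genes. That call was lost on removal of any no Myc array. PSMD7-DT and PSMD14-DT read 20 to 34 on all arrays.

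Other proteasome genes were read from a list of 16 measured partners. In high against no Myc 9 rose and 1 fell, while 14.2% of all genes were called higher and 9% lower. UCHL5, a deubiquitinase of the regulatory particle, read 850, 860, 1017 and 804 with high Myc, 812, 931 and 492 with low Myc, and 291 and 185 with no Myc. It rose by 1.92 ± 0.26 (adjusted p = 0.00089) and 1.63 ± 0.28 (adjusted p = 0.00362), more than any other partner in either comparison. The deubiquitinase USP14 rose by 1.22 ± 0.19 (adjusted p = 0.00151) and 0.88 ± 0.20 (adjusted p = 0.0125), and PITHD1, a proteasome-interacting protein, by 0.98 ± 0.19 (adjusted p = 0.0047) and 0.88 ± 0.20 (adjusted p = 0.0127). With the median over its probe sets PITHD1 turned to -0.0527 and -0.0319 and was not called. ECPAS, a scaffold that binds the assembled proteasome, read 1054, 1157, 1332 and 1066 with high Myc, 679, 618 and 538 with low Myc, and 459 and 450 with no Myc. ECPAS was the partner called in high against low Myc (0.91 ± 0.11, adjusted p = 0.00523), and its difference from no Myc was 1.34 ± 0.13 (adjusted p = 0.000233) in high and 0.42 ± 0.14 (adjusted p = 0.0632) in low Myc. Its calls held in all 9 leave-one-out fits. ADRM1, SEM1, POMP, PAAF1 and TXNL1 rose by 0.57 to 0.80 in high Myc, where TXNL1 gave -0.0453 with the median over its probe sets. Without the library labelled no Myc 1 PITHD1, ADRM1, SEM1, POMP and PAAF1 were not called in high Myc, and ADRM1 and POMP also missed the threshold without no Myc 2, high Myc 3 or high Myc 4 (adjusted p up to 0.24).

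In low against no Myc 5 partners rose and 1 fell, while 11.3% of all genes were called higher and 8.55% lower. POMP, the chaperone that matures the core, rose by 0.93 ± 0.17 (adjusted p = 0.00588), against 0.57 ± 0.17 in high Myc (adjusted p = 0.0344). The high Myc call of POMP held in 3 of the 9 leave-one-out fits, and its low Myc call was lost once the library labelled no Myc 1 was removed (adjusted p = 0.0643). Those of USP14, PITHD1 and TXNL1 in low Myc were also lost without that library (adjusted p = 0.0579, 0.132 and 0.105), and those of USP14 and TXNL1 without no Myc 2. NGLY1, the enzyme that strips sugars from the transcription factor NFE2L1, was the partner that fell, by 0.64 ± 0.14 in high Myc (adjusted p = 0.011) and by 0.94 ± 0.15 in low Myc (adjusted p = 0.00293). Its high Myc call was lost without no Myc 2 (adjusted p = 0.118). NFE2L1, which drives proteasome genes when the proteasome is inhibited, read 482, 993, 685 and 598 with high Myc, 1139, 981 and 928 with low Myc, and 728 and 686 with no Myc. The high Myc arrays of NFE2L1 spread around the no Myc arrays, and its differences were -0.09 ± 0.24 (adjusted p = 0.887) in high Myc, 0.52 ± 0.26 (adjusted p = 0.236) in low Myc and -0.60 ± 0.21 between high and low Myc (adjusted p = 0.179). NFE2L2 was not called either (0.26 and 0.08).

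**Figure D5:**
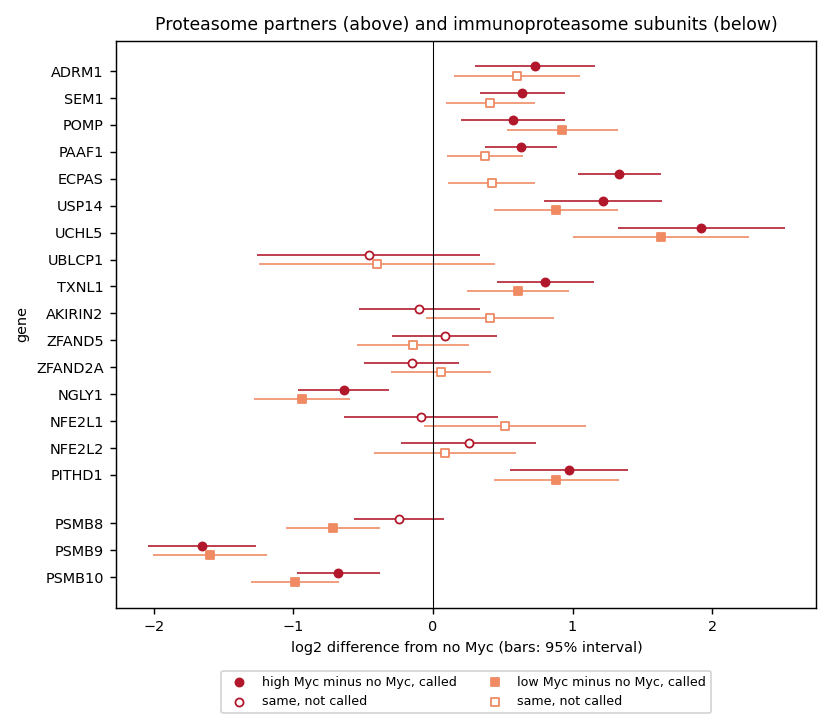
Log2 difference from no Myc in high Myc (circles) and low Myc (squares) for 16 proteasome partners and, below a gap, the 3 immunoproteasome genes, with 95% intervals; filled symbols are called. UCHL5 (1.92 and 1.63) lies farthest right, and PSMB9 (-1.65 and -1.60) farthest left.

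The immunoproteasome subunits ran against the catalytic subunits they replace. PSMB9 read 1147, 1169, 1182 and 1238 with high Myc, 1536, 958 and 1266 with low Myc, and 4063 and 3413 with no Myc, and fell by 1.65 ± 0.17 in high Myc (adjusted p = 0.000275) and by 1.60 ± 0.18 in low Myc (adjusted p = 0.000752). PSMB10 fell by 0.68 ± 0.13 (adjusted p = 0.00511) and 0.99 ± 0.14 (adjusted p = 0.00157), while PSMB8 gave -0.24 ± 0.14 in high Myc (adjusted p = 0.326) and fell by 0.72 ± 0.15 in low Myc (adjusted p = 0.00952), a call lost on removal of any no Myc array. After quantile normalization was repeated PSMB8 was called lower in high Myc. These genes respond to interferon, as PSME1 does, and all 4 were highest on the no Myc arrays, where the B-cell and myeloid marker sums were also highest. Of the 8 myeloid markers 2, LYZ and ITGAM, were called lower in high and in low Myc, and the other 6 in neither. The part of those markers in the result was not tested.

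Calls in 2 lists upstream of the proteasome are read against those over all genes, 14.2% higher and 9% lower in high against no Myc and 11.3% higher and 8.55% lower in low against no Myc. Of 9 measured ubiquitin genes, E1 enzymes and shuttle factors, limma called 0 in each comparison. An unadjusted p under 0.05 was reached by 3, 1 and 3 in high against no, low against no and high against low Myc. Over all 19775 genes those counts were 5990, 5672 and 3253. Of 10 genes of the p97 complex, which extracts proteins for degradation, PLAA rose (0.91 ± 0.18, adjusted p = 0.00631) and UBXN1 fell (-0.53 ± 0.13, adjusted p = 0.0163) in high Myc, while UFD1 (0.55 ± 0.14, adjusted p = 0.0218) and FAF1 (0.69 ± 0.18, adjusted p = 0.0249) rose in low Myc. Each of the 4 was lost without no Myc 2 (adjusted p up to 0.119), those of UBXN1, UFD1 and FAF1 also once the library labelled no Myc 1 was removed (adjusted p up to 0.15), UFD1 also without low Myc 2 and FAF1 also without low Myc 1.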

How the data were processed

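RNA of P493-6 cells was measured on 9 Affymetrix arrays of 54675 probe sets, grouped by the labels' Myc expression. The authors deposited linear intensity values, which had been summarised by RMA, per the submitters' processing notes; its version is not given in the sources used here. Such values give the arrays a similar but not equal distribution (array medians 75.3 to 80.3), so a change in total RNA per cell cannot be seen. The number of arrays limits the precision, and no detection calls were used.

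Probe sets with 1 symbol in the platform annotation (41097) were kept, those with several (1801) or none (11777) were not named, and 41043 symbols were updated through the Entrez identifier. The probe set with the highest mean stood for a gene, which gave 19775 genes. Of the 39 proteasome genes 22 had more than 1 probe set. The probe sets that stood for PSMA1, PSMA7, PSMD4 and PSME3 carry the platform's suffix _x_at, for probes that may also match other transcripts. Those of other genes, among them PSMG4 and PSMD12, carry the suffix _s_at, and their match to other transcripts was not examined.

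Log2 intensities of all 9 arrays entered 1 model in R 4.3.3 and limma 3.58.1 (lmFit, then contrasts and untrended eBayes), which left 6 residual degrees of freedom. Tests were two-sided. P-values were Benjamini-Hochberg adjusted within a comparison, and the threshold for a call was 0.05. The code was tested on simulated data, 10 sets of 19775 genes in which 200 were changed. Each gene was drawn independently of the others from a normal distribution, with the same SD in all groups. In the measured arrays genes moved together by array, so the rates below may not hold for them. High against no Myc recovered 69.3% of 2-fold and 94.7% of 4-fold changes, with 4.53% of calls false. Low against no Myc recovered 64.7% and 94.3%, with 5.95% false. High against low Myc recovered 78.4% and 96.8%, with 5.06% false.

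Same-numbered replicates of different groups correlated at -0.31 to 0.47 in their deviations from group means, and at 0.25 to 0.47 for those numbered 1. The labels do not say that a number marks a shared batch, so the main fit took no pairs. A shared batch was not tested beyond the replicate block. The alternatives were another normalization or centring, a filter, the median over all probe sets of the gene, every probe set, weights on the arrays, another prior, a fit on the compared groups alone, the replicate block, a stricter threshold and each array left out. The genes and lists were chosen with earlier results of these data known. Values on every array were given for the catalytic subunits, activators, inhibitor, the highest and lowest gene of each role in high against no Myc and the 4 largest calls of a comparison. Arrays correlated at 0.976 to 0.992 within and 0.917 to 0.982 between groups. T and natural killer (8 genes), plasma (5), erythroid and platelet (3) and fibroblast and epithelial (6) markers summed to 672 to 888, 1553 to 3862, 336 to 432 and 710 to 898 over all arrays, and the ranges of the groups overlapped except for the fibroblast and epithelial list, which summed to 710 to 784 with low Myc and 790 to 803 with no Myc.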

Additional observations from a re-analysis of the deposited data

How the results depend on the processing

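The direction of the proteasome median against no Myc held under each of the 11 alternatives, but counts moved. In high against no Myc the median was 0.62 with the median over its probe sets and 0.61 after quantile normalization was repeated, against 0.79, and the risers were 14 to 31 when 1 array was left out (14 without the library labelled no Myc 1). In low against no Myc the risers were 12 with only the groups compared, 9 at an adjusted p under 0.01 and 6 to 28 when 1 array was left out, and the fallers were 2 with the median over its probe sets and 0 to 1 when 1 array was left out. In high against low Myc the risers were 4 with array weights, 3 after quantile normalization was repeated, 2 with a mean log2 of at least 5, 0 to 2 when 1 array was left out, and 0 with arrays centred on their median, every probe set tested, only the groups compared or the stricter threshold. The median of that comparison was -0.0081 without low Myc 3 and up to 0.19 without another array. With the median over its probe sets, differences reversed for PSME4 (-0.10 in high and -0.88 in low Myc), PSMA3 (-0.0686 in low Myc), TXNL1 (-0.0453 in high Myc), PITHD1 (-0.0527 in high and -0.0319 in low Myc) and PSMG4 (-0.97 between high and low Myc); dimmer probe sets enter that median, and the cause was not tested. Replicate numbers were shared across groups, and the labels do not say whether a number marks a shared batch. With the replicate block, the risers were 29 in high against no Myc, 24 in low against no Myc and 0 in high against low Myc; PSMC3, PSMC4 and PSMD10 were called in high Myc while PSMA5, PSMD5, PSMD9 and PSMG2 were not, and ECPAS was not between high and low Myc. Counting the 4 other genes of the rule, an alternative chosen after the data were seen, gave 30, 27 and 1 risers and medians of 0.75, 0.67 and 0.07. In the high Myc group, 40 values (the 39 genes and MYC) were searched for an array far from the rest, and none passed.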

Other observations

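Complexes built like the lid were read beside it. The COP9 signalosome, which shares the lid's architecture and removes NEDD8 from cullins, had 6 of 9 genes higher in high than in no Myc, with a median of 0.84, and 5 of 9 higher in low than in no Myc, with a median of 0.66. COPS3 rose by 1.32 ± 0.19 in high Myc (limma, adjusted p = 0.00117) and by 0.89 ± 0.20 in low Myc (adjusted p = 0.0137), and COPS5, the catalytic subunit, by 0.84 ± 0.16 (adjusted p = 0.00476) and 0.66 ± 0.17 (adjusted p = 0.0249). Of 8 related subunits of the translation factor eIF3, 4 rose in high Myc (median 0.43) and 1, EIF3M, in low Myc (0.80 ± 0.15, adjusted p = 0.00633; median 0.11). EIF3M gave 0.95 ± 0.15 in high Myc (adjusted p = 0.00149). Over all genes 14.2% were called higher in high and 11.3% in low against no Myc. Once the library labelled no Myc 1 was removed, COPS3 and COPS5 were not called in low Myc (adjusted p up to 0.152), nor COPS5 in high Myc (adjusted p = 0.0504).

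Ubiquitin ligases that mark cell-cycle proteins for the proteasome had more genes called higher than lower against no Myc. Of 16 genes of the anaphase-promoting complex and the SCF ligase, 6 rose and 1 fell in high against no Myc, while 14.2% of all genes were called higher and 9% lower. In low against no Myc 6 rose, while 11.3% of all genes were called higher. SKP2, the substrate receptor that targets the cell-cycle inhibitor p27, rose by 1.54 ± 0.21 in high Myc (adjusted p = 0.00093) and by 1.02 ± 0.22 in low Myc (adjusted p = 0.0121). FBXW7, a receptor that targets MYC itself, fell by 0.56 ± 0.17 in high Myc (adjusted p = 0.0444), which held on removal of 2 of the 9 arrays. The low Myc call of SKP2 was lost once the library labelled no Myc 1 was removed (adjusted p = 0.126).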
